A study of Rattus norvegicus with 9 samples.

Results

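The transcriptome of the normal male rat brain was described from 3 whole-brain libraries, 1 from each of 3 wild-type rats, out of the 9 libraries of the series. The members were chosen by their genotype label alone and are named libraries 1, 2 and 3 after the numbers of the rats. The rats were alcohol-naive male Wistar animals from Charles River that received no treatment and, per the labels, carried no engineered allele. Their age, and whether they were littermates of the mutant rats, were not given in the sources used here. Total RNA was depleted of ribosomal RNA with Ribo-Zero, made into stranded TruSeq libraries and sequenced as paired reads. The other 6 libraries came from rats that were heterozygous or homozygous for a CRISPR/Cas9 deletion in Lrap, a gene for a long non-coding transcript, and were not used. The question addressed was therefore what the brain RNA of these 3 rats was made of, and how closely the 3 libraries resembled each other.

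A whole-brain extract mixes the RNA of neurons, astrocytes, oligodendrocytes, microglia, vessel cells and the choroid plexus with that of blood inside the vessels. Ribosomal depletion keeps RNAs without a poly(A) tail, such as the 7SL RNA of the signal recognition particle, beside messenger RNAs. Neurons splice many of their genes, among them those of ion channels, receptors and cytoskeletal proteins, into several isoforms. In such bulk RNA, fewer cells of a type and less RNA per cell cannot be told apart.

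The libraries held 38705204, 36936414 and 35511295 estimated counts, and each stood apart from the others in 1 respect. In library 1 a repeated region of chromosome 14 held 12.1% of all counts, against 4.55% and 4.64% in libraries 2 and 3. In library 2 mitochondrially encoded transcripts held 39.2% of counts, against 20.8% and 18.6% in libraries 1 and 3, and the implied mean fragment was shorter, at 149.7 bases against 166.3 and 166.9. Library 3 held far more RNA of cerebellar genes than the other two, as given further on. The labels were checked against markers. Of 16 genes that mark muscle, heart, liver, kidney, pancreas, testis, skin or lung, 7 were named in the annotation at a usable length, and 1 of them reached 1 TPM in each library (Acta1, the actin of skeletal muscle). The Y-linked genes Eif2s3y and Kdm5d, which only males carry, reached 1 TPM in each library. The Lrap locus stood at 0.35, 0.29 and 0.42 TPM in libraries 1, 2 and 3, above 72.0%, 66.3% and 76.3% of the 114700 loci.

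By class code, annotated transcripts held most of the TPM. By counts, transcripts that only overlap an annotated exon held the largest share in libraries 1 and 2, but only with mitochondrial transcripts counted. A class code is the letter that a comparison with the Ensembl annotation gives each assembled transcript. Code = marks the splice pattern of an annotated transcript, j a new splice pattern that shares a junction with one, c a piece of one, o another overlap of exons on the same strand, x an overlap on the opposite strand, i a transcript inside an intron and u one in no annotated gene. Transcripts of code = held 51.3%, 69.8% and 69.1% of TPM in libraries 1 to 3 (63.4 ± 10.5%, SD, n = 3). Intergenic transcripts (u) held 22.8%, 11.9% and 13.2% of TPM, and opposite-strand transcripts (x) 11.1%, 4.67% and 4.39%. Both of these classes were highest in library 1. New splice forms of annotated genes (j) held only 3.791%, 3.336% and 4.998% of TPM but 20.9%, 18.6% and 26.8% of counts, and their median length was 3847 bases. Code o held 30.1%, 43.7% and 24.4% of counts, the mitochondrial transcript of highest level among them. With mitochondrial transcripts and spike-ins set apart, code o held 9.49%, 4.70% and 5.84% of counts, below codes = and j in each library. Whether counting used the strand was not given in the sources used here, so reads of opposite-strand pairs may have been shared.

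The shares of codes = and j became steadier once very short and repeated RNAs were set aside. With effective lengths under 350 bases, spike-ins, mitochondrial transcripts and the 3 loci of most counts left out, a set chosen after seeing the data, code = held 45.9%, 48.0% and 49.6% of TPM (47.8 ± 1.84%, SD, n = 3). New splice forms held 28.9%, 29.2% and 29.5% (29.2 ± 0.30%, SD, n = 3). In this set the assembled forms with new splice patterns thus held well over 25% of the RNA, with nearly the same share in each library. Code o held 11.38%, 7.004% and 11.49%, lowest in library 2, and code u 8.76%, 10.5% and 5.44%, lowest in library 3. Opposite-strand transcripts held 1.10%, 0.93% and 0.70% in this set. The classes differed in structure too: 86.7% of the 70903 transcripts of code u had a single exon, with a median length of 413 bases, against 20.1% of the 15012 of code =, with 1856 bases.

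**Figure D1:**
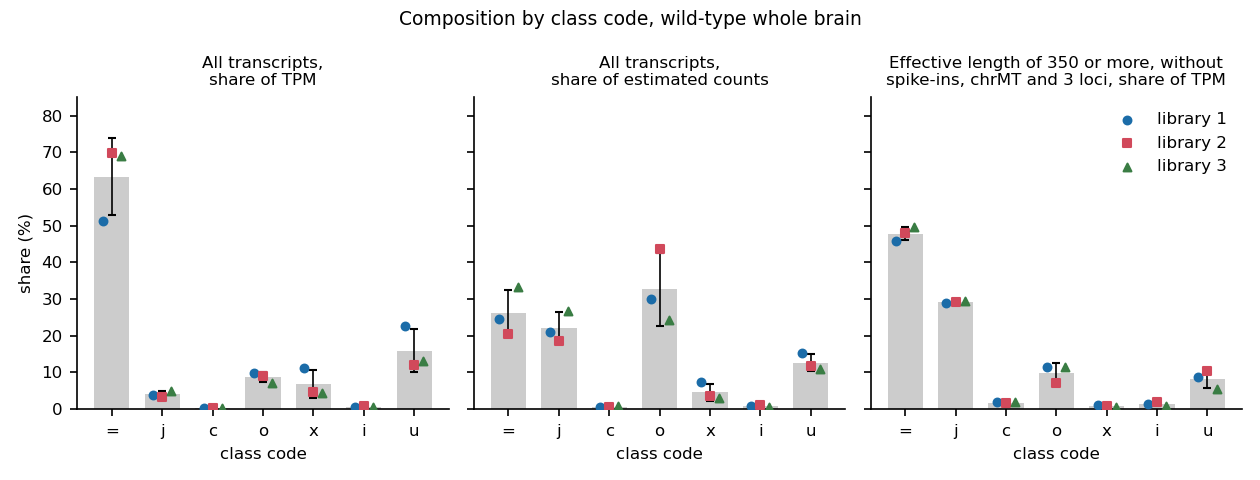
Share of RNA by class code in the 3 wild-type libraries: of all TPM (left), of all estimated counts (middle), and of TPM with short transcripts, spike-ins, chrMT and the 3 loci of most counts left out (right), in percent. Bars are means and whiskers SD over 3 libraries, points are libraries, and codes e, p and s, each at most 0.138% in the left panel and 0.522% in the right, are not drawn; the j share of the right panel lies between 28.9% and 29.5%.

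Very few short or repeated loci took most of the deposited TPM. TPM divides counts by effective length, so a short RNA gains a high TPM from few reads. The 10 loci of highest level held 59.8%, 57.4% and 61.1% of TPM. Transcripts with an effective length under 350 bases held 66.2%, 73.9% and 70.1% of TPM from 12.3%, 7.98% and 10.8% of counts. Those under 20 bases held 10.4%, 41.3% and 20.5% of TPM from at most 0.374% of counts, so library 2 gave the most TPM to them. One of these, AABR07060522.2 (chromosome 4, 77459794 to 77459895), had an effective length of 0, 2.38 and 1.15 bases and 5163, 25647 and 5936 counts.

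Rn7sl1, the 7SL RNA that forms the core of the signal recognition particle, led the list. It lies on chromosome 6 at 91456908 to 91457210 and stood at 109994, 46412 and 132658 TPM, lowest in library 2. AABR07064724.4, a second copy of the same length in that region, had identical counts in every library, so the 2 copies cannot be told apart by these reads. Among transcripts with at least 10 counts in each library, 375 groups, with 832 members, had identical counts. Rmrp, the RNA of the mitochondrial RNA processing enzyme, stood at 3211, 1740 and 4073 TPM, again lowest in library 2. An unannotated locus of 240 bases on chromosome 3 (102594630 to 102594869) stood at 68799, 8467 and 22500 TPM, lowest in library 2. AABR07070810.1 on chromosome 8 (85480292 to 85480622) stood at 36544, 43190 and 64482 TPM, highest in library 3.

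Mitochondrially encoded RNA was abundant by counts and modest by TPM. The assembly joined bases 68 to 6867 of the mitochondrial genome, where its ribosomal RNAs lie too, into a single locus of code o named Mt-co1 after the gene of a cytochrome c oxidase subunit. That locus held 7959657, 14400212 and 6565711 counts, and 36557, 66780 and 33053 TPM. Library 2 was thus the highest on either scale. Mt-cyb, the cytochrome b gene, did not follow that order, at 1117, 819 and 678 TPM. The whole mitochondrial share was 3.77%, 6.76% and 3.37% of TPM (4.63 ± 1.85%, SD, n = 3) and 26.2 ± 11.3% of counts.

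To describe genes rather than short RNAs, isoforms of codes =, c, j and o were summed by gene name, and levels were rescaled to 1000000 over nuclear genes of at least 350 bases of effective length. This scale is named nuclear TPM. Of 19431 gene names in the assembly, 10182 reached 1 deposited TPM in each of the 3 libraries and are counted as expressed, 9842 of them on the nuclear scale. Library 3 had the most genes at that level, 11743, against 10963 and 10518 in libraries 1 and 2. Of the names, 12022 reached it in at least 1 library, and 776 reached it in library 3 alone, against 113 in library 1 alone and 113 in library 2 alone. However, 1 deposited TPM stood for 6.53, 9.41 and 5.99 nuclear TPM in libraries 1, 2 and 3, so the mark was not equal between libraries. The part of this scaling in the numbers of genes was not tested.

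How concentrated the RNA was depended on whether code o was counted. LOC257642, which the assembly joins from overlapping pieces in the repeated region of chromosome 14 (46517584 to 46655244), stood at 346478, 161613 and 123137 nuclear TPM, mostly through code o. With it, 119, 440 and 451 genes held 50% of nuclear TPM. A second scale without code o, chosen after seeing the data and named strict nuclear TPM, gave 884, 825 and 896 genes (868 ± 38.0, SD, n = 3). On the strict scale the levels of libraries 1, 2 and 3 are larger by factors of 1.63, 1.26 and 1.28, so the scales differ most in library 1. The 25 leading genes held 42.3%, 25.9% and 25.7% of nuclear TPM and, chosen anew, 10.8%, 11.3% and 9.91% of strict nuclear TPM. Of the 25, 20 were also among the 25 of the strict scale. The scales order the libraries differently for some genes and lists, and both scales are given for only part of these.

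The leading protein-coding genes served glycolysis, myelin, synapses, calcium signalling, the cytoskeleton and secretion. Gapdh, the glycolytic enzyme glyceraldehyde-3-phosphate dehydrogenase (chromosome 4, 157677389 to 157680355), stood at 4807, 5881 and 6793 nuclear TPM (5827 ± 994, SD, n = 3). On the strict scale it stood at 7829, 7436 and 8689, a coefficient of variation (CV, the SD as a percentage of the mean) of 8.02%. The order of libraries 1 and 2 thus turned with the scale. The assembly split Gapdh into 2 adjacent loci, whose main isoforms stood at 396, 337 and 641 and at 339.5, 288 and 492 deposited TPM, and the sum counts a full-length mRNA once for each piece. Among expressed names, 887 lay on several loci, Cpe, Camk2a and Snap25 among them. Ppia, the prolyl isomerase cyclophilin A, stood at 2030.2, 2892 and 3165 nuclear TPM. Aldoa, an aldolase of glycolysis, stood at 1753, 1542 and 2367, lowest in library 2.

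Promoter sequences show a feature that 3 of these genes share and that few promoters have. The letters TATAAA are the core of the TATA box, at which transcription machinery assembles. They were sought on the gene's strand in the RefSeq promoters of build GRCr8, with the whole match within 45 to 16 bases before the start. They were present in 541 of 33469 promoters (1.62%), and in 254 (0.759%) on the other strand. Of the 25 leading genes, 14 matched a promoter by symbol, and 3 of these, Gapdh, Ppia and Hba-a1, held the letters, none of the 14 on the other strand. Counted by promoter, as in the share over all promoters, the letters were in 3 of the 19 promoters of these 14 genes. The 100 bases before each start are printed 5′ to 3′ with the match in capitals.
Gapdh (chr4:159652468-159652567, minus strand): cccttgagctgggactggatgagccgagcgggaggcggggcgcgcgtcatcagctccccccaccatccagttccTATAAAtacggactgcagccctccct
Ppia (chr14:85493116-85493215, plus strand): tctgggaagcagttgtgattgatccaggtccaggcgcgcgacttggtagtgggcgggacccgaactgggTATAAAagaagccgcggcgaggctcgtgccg
Hba-a1 (chr10:15842581-15842680, minus strand): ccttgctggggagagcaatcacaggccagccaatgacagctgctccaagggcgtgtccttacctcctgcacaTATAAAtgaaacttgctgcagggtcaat
The match began 26, 31 and 28 bases before the start, and a match is a description of letters, not a measured site.

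Glial and secreted products followed. Mbp, myelin basic protein, which compacts the myelin sheath (chromosome 18, 79326738 to 79437310), stood at 3943, 3200.1 and 4399 nuclear TPM (3847 ± 605, SD, n = 3). On the strict scale it stood at 6423, 4047 and 5626, so library 2 was lowest on both scales. Cst3, the secreted protease inhibitor cystatin C, stood at 2634, 5548 and 3541, and S100b, a calcium-binding protein of astrocytes, at 1728, 3455 and 2028. Both were highest in library 2. Apoe, the main lipid carrier of the brain, stood at 1802, 1785 and 2359, and Ptgds, prostaglandin D2 synthase, which meninges and oligodendrocytes secrete, at 1948, 2760.4 and 3564. The values of Ptgds did not order the libraries differently on the strict scale, at 3173, 3491 and 4559.

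Genes of calcium signalling and synapses came next. Calm2, a calmodulin gene, stood at 2796, 3790.2 and 3533 nuclear TPM, with a CV of 3.22% on the strict scale. The annotation gives this name to loci on chromosomes 6, 15 and 2, so which gene the value stands for is uncertain. Snap25, a fusion protein of synaptic vesicle release, stood at 2123, 2132 and 3282, and Zwint, which encodes a partner of SNAP25, at 1968, 2622 and 2474. Zwint had a CV of 2.42% on the strict scale, so its libraries lay very close. Camk2a, the calcium/calmodulin-dependent kinase of forebrain excitatory synapses, stood at 2544, 1891 and 1675 nuclear TPM, highest in library 1. On the strict scale it stood at 4144, 2391 and 2143, with the same order and a wider gap. Cpe, which trims prohormones to peptides, stood at 2077, 3203 and 2424.

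The cytoskeleton, the choroid plexus and blood supplied the rest. Tmsb4x, thymosin beta 4, which binds actin monomers, stood at 2454, 5804 and 2122 nuclear TPM, far higher in library 2 than in the other libraries. Actb, beta-actin, stood at 2166, 2165 and 2578, highest in library 3. On the strict scale Actb stood at 3527, 2737 and 3297, highest in library 1. Ttr, the thyroxine carrier transthyretin, which the choroid plexus secretes (chromosome 18, 15532963 to 15540177), stood at 1359, 4963 and 2501. The haemoglobin genes Hbb and Hba-a1 stood at 1075, 4156 and 1984, and at 1236, 2732 and 2610.5. Hbb was highest in library 2, and both were lowest in library 1. How much blood each brain held was not measured. The remaining leading names, AABR07048790.1, AABR07046778.1, AABR07029741.1, Rn60_1_2212.3 and LOC680121, have no described role in the annotation used, and the first 4 rest on code o alone. AABR07048790.1 on chromosome 5 (91133759 to 91139845) ranged most, at 24938, 18975 and 65875 nuclear TPM.

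**Figure D2:**
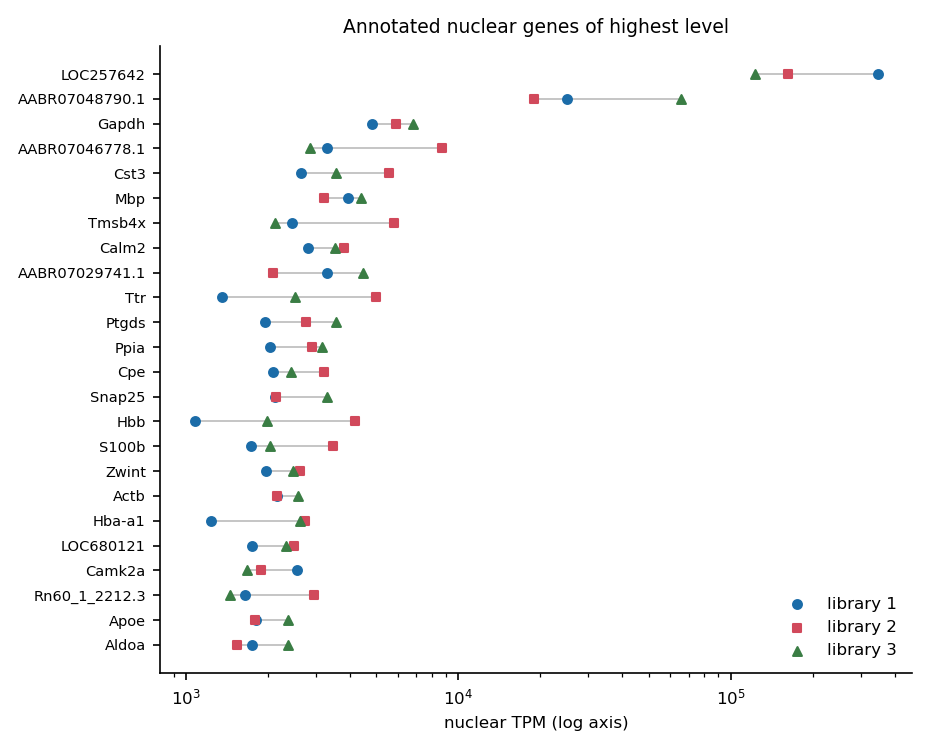
Nuclear TPM (log axis) of 24 of the 25 annotated nuclear genes of highest mean, with 1 point for each of the 3 wild-type libraries and a line over their range. LOC257642 lies between 123137 and 346478, and the named protein-coding genes lie between 1075 (Hbb, library 1) and 6793 (Gapdh, library 3).

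Markers of every main brain cell class were present, and on the strict scale the astrocyte sums were steadier than those of neurons and oligodendrocytes. The lists below hold markers in general use, summed on the strict scale. Over all 9531 expressed genes of that scale, 3008 were highest in library 1, 3263 in library 2 and 3260 in library 3. On the first scale these numbers were 393, 4761 and 4688 of 9842. Of the 10 neuronal markers, 10 were expressed, with sums of 6154, 5373 and 6533 strict nuclear TPM. Map2, the dendritic microtubule protein, had 765, 744 and 747, a CV of 1.48%. Of the 10 astrocyte markers, 9 were measured on this scale and all 9 were expressed, with sums of 8666, 9989.9 and 9356. Gja1, the gap junction protein connexin 43, had 280.8, 274.3 and 279.8, and Glul, glutamine synthetase, 1875, 1682 and 1838. The libraries barely differed in these genes, while S100b, with 2814, 4369 and 2594, was higher in library 2. Of the 10 oligodendrocyte markers, 10 were expressed, with sums of 12936, 9082 and 13415, lowest in library 2. On this scale 7 of the 10 were highest in library 3, among them Mag, a myelin adhesion protein, with 261, 134 and 336. Mal, a myelin membrane protein, did not follow the sum, with 264, 337 and 295.

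Markers of inhibitory neurons gave a wide range of sums. Of the 10 markers of GABAergic neurons, 6 were expressed on the first scale and 5 on the strict scale, with sums of 924, 748 and 1709.6 strict nuclear TPM. Pvalb, the calcium-binding protein parvalbumin, had 297, 314 and 1086. Gad1, the enzyme that makes GABA, had 225, 164 and 283, and Sst, the peptide somatostatin, 159.9, 102.6 and 99.4. Library 3 was thus highest in Pvalb and Gad1 and lowest in Sst. Of the blood list, 5 genes were expressed, with sums of 5449, 11136 and 8334, and 3 of them were highest in library 2.

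Other glial and vascular markers gave lower sums. Of the 10 microglial markers, 9 were expressed, with sums of 995, 1194 and 1199.5. Csf1r, the receptor that keeps microglia alive, had 91.6, 107 and 97.5 strict nuclear TPM, and C1qa, a complement subunit, 77.0, 73.5 and 79.8. Aif1, the common microglial marker IBA1, was higher in library 2, at 30.3, 62.5 and 35.7. For precursors of oligodendrocytes, 7 of 10 markers were expressed on the first scale, with Pdgfra, their growth factor receptor, at 72.9, 46.3 and 73.5 on the strict scale. For endothelial cells, 8 of 10 were expressed on the first scale, with Flt1, a receptor of vascular endothelial growth factor, at 54.8, 43.7 and 51.0 on the strict scale. For mural cells, 5 of 10 were expressed, and Vtn, vitronectin, had 66.9, 70.8 and 72.9, a CV of 4.33%. For meninges, 6 of 10 were expressed, led by Ptgds, which other cells make too. Without it, the highest was Igf2, insulin-like growth factor 2, with 102, 168 and 123.

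Genes that mark the tissues of the ventricles were highest in library 2. All 8 expressed choroid plexus genes were highest in library 2 on both scales, with sums of 2343, 6705 and 3385 strict nuclear TPM. Over all expressed genes, 4761 of 9842 were highest in library 2 on the first scale and 3263 of 9531 on the strict scale. Besides Ttr, Kl, which encodes Klotho, had 21.9, 93.1 and 45.6, and Folr1, a folate receptor, 17.7, 59.8 and 26.2. The libraries kept 1 order in each, with library 2 first, library 3 second and library 1 last. Sostdc1, a secreted antagonist of bone morphogenetic protein signals, had 11.3, 56.4 and 16.9. All 4 expressed markers of the ciliated ependyma, which lines the ventricles, were highest in library 2 as well, with sums of 132, 217 and 154. Ccdc39, needed to assemble motile cilia, had 34.0, 56.4 and 28.3.

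Striatal genes were lowest in library 2 and, on the strict scale, most excitatory genes were highest in library 1. The 7 striatal genes expressed on the strict scale were highest in library 1, with sums of 1031, 575 and 904. Penk, the precursor of enkephalins, had 383, 208 and 317, and Ppp1r1b, the dopamine-regulated phosphatase inhibitor DARPP-32, 336, 199 and 332. Library 2 was lowest in each. On the first scale 3 of 9 striatal genes were highest in library 1 and 6 in library 3, so the leading library depends on the scale, and library 2 led in none on either. Over all expressed genes of the first scale, 393 of 9842 were highest in library 1 and 4688 in library 3. Of 8 excitatory neuron genes, 6 were highest in library 1 on the strict scale and 3 on the first. Slc17a7, the vesicular glutamate transporter of cortical neurons, had 827, 804 and 563 strict nuclear TPM. Its counterpart in subcortical neurons, Slc17a6, had the lowest value in library 2, at 40.1, 19.2 and 61.8.

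All 4 cerebellar genes expressed on the first scale, and all 3 on the strict scale, were highest in library 3, some by many times. Over all expressed genes, 4688 of 9842 were highest in library 3 on the first scale and 3260 of 9531 on the strict scale. Gabra6, Cbln3, Fat2 and Car8, given next, are not among the cerebellar genes so counted, since each was below 1 deposited TPM in library 1. Gabra6, a GABA-A receptor subunit of cerebellar granule cells (chromosome 10, 27847439 to 27862868), stood at 3.99, 10.8 and 185 nuclear TPM, from 90, 166 and 4124 counts. Cbln3, a precerebellin of granule cells, stood at 2.55, 3.30 and 105, and Fat2, a cadherin of granule cells, at 5.16, 7.06 and 131. Car8, a carbonic anhydrase-related protein of Purkinje cells, stood at 6.34, 11.1 and 104. In Gabra6, Cbln3, Fat2 and Car8, library 3 lay far above libraries 1 and 2. Pcp2, a Purkinje cell protein whose transcript was too short for the nuclear scale, had 0.78, 0.47 and 43.4 deposited TPM. Calb1, which cells outside the cerebellum express as well, differed less, at 129, 168 and 457 strict nuclear TPM. The sources used here do not give how much cerebellum entered each extract, and its part in these differences was not tested.

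Several genes of the hypothalamus and the pituitary were near 0 in library 2. Oxt, oxytocin, had 20.12, 0.476 and 23.98 strict nuclear TPM, and Pmch, the precursor of melanin-concentrating hormone, 27.0, 2.62 and 31.3. Avp, vasopressin, had 57, 1 and 96 counts and was too short for the nuclear scale. Cga, the alpha subunit shared by pituitary glycoprotein hormones, had 31.1, 0.36 and 43.2, and Tshb, the beta subunit of thyrotropin, 15.9, 0 and 13.3. None of the 9 hypothalamic and none of the 6 pituitary genes measured on the nuclear scale reached 1 deposited TPM in each library. Libraries 1 and 3 were closer to each other in these genes than to library 2. The pineal enzyme gene Tph1 went the other way, with 0.32, 10.6 and 3.06. Calb2, calretinin, from the olfactory bulb list, had 87.2, 44.1 and 341, highest in library 3, the library with the high cerebellar genes.

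**Figure D3:**
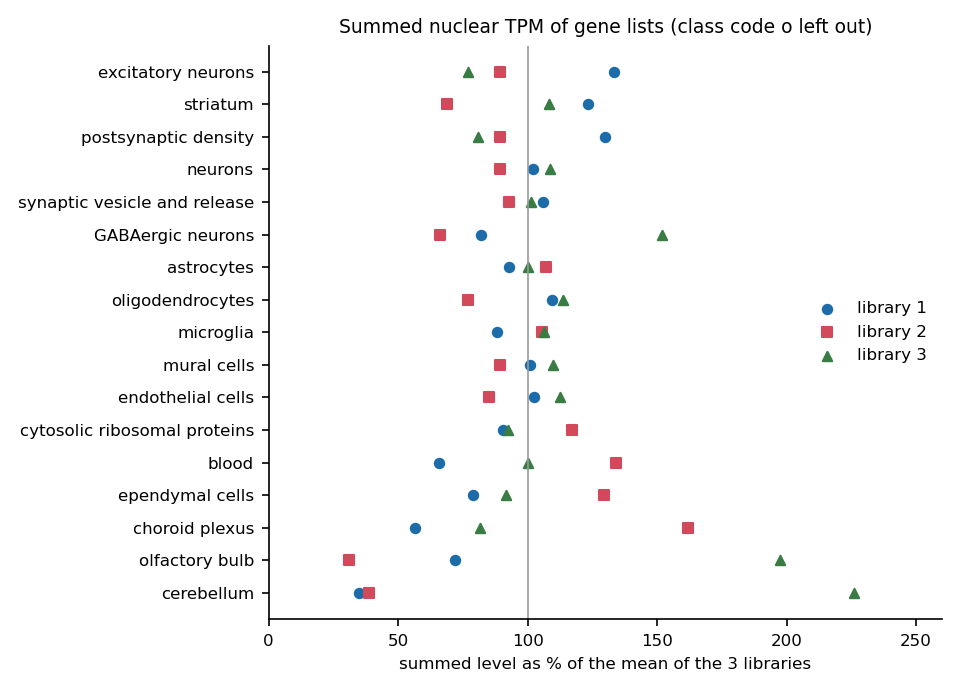
Summed strict nuclear TPM of 17 marker and pathway lists in each wild-type library, as a percentage of the mean of the 3 libraries (vertical line at 100). Cerebellar genes lie far to the right in library 3, choroid plexus and ependymal genes in library 2, while the sums of astrocyte, general neuronal and vesicle genes lie closer together than those of the GABAergic and excitatory neuron lists.

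Pathway lists covered energy supply, protein synthesis, the cytoskeleton and synapses. All 16 glycolytic genes were expressed, with sums of 22144, 19759.6 and 24662 strict nuclear TPM. Of the 16, 13 were highest in library 3, against 3260 of all 9531 expressed genes. The levels of the 16 ran from Pfkl, a phosphofructokinase, with 76.5, 49.6 and 78.5, up to Gapdh. Aldoc, the aldolase of astrocytes, had 2107, 1922 and 2542. Of 57 cytosolic ribosomal proteins, 34 were expressed on the nuclear scale, with sums of 21388, 27617 and 21806. Of the 34, 20 were highest in library 2, against 3263 of all 9531 expressed genes. Rpl26 had 1331, 3480 and 1357, whereas Rps19 had 1021, 1058 and 1038, so the 2 kept the same order of libraries with very different gaps. A further 16 were shorter than 350 bases and were not placed on this scale. Many of these genes have processed copies in the genome that can share reads, so single values are uncertain.

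Tubulins and synaptic genes were expressed throughout. All 18 tubulin, neurofilament and microtubule genes were expressed, with sums of 12992, 10847 and 13591 strict nuclear TPM. Tuba1b, an alpha-tubulin, had 2164, 2211 and 2238, a CV of 1.68%, and Stmn1, a tubulin-binding protein, 1553, 1576 and 1504. The neurofilament Nefh, of thick axons, varied far more, with 192, 115 and 334. All 20 vesicle and release genes were expressed, with sums of 12331, 10811 and 11816. Syp, the vesicle protein synaptophysin, had 954, 984 and 827, and Syt11, a synaptotagmin, 770, 748 and 705. All 14 postsynaptic density genes were expressed, and 11 were highest in library 1 and none in library 3 on the strict scale, against 6 and 2 on the first scale. Over all expressed genes, 3008 of 9531 were highest in library 1 on the strict scale and 393 of 9842 on the first. Dlg4, the scaffold PSD-95, had 569, 438 and 426. All 11 sodium and calcium pump genes were expressed, led by the sodium pump subunit Atp1b1 with 1344, 1223 and 1472.

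Most multi-isoform genes had a leading isoform with most of the gene's RNA, but few had only 1 isoform of weight. Of the 10182 expressed names, 3481 (34.2%) had a single assembled isoform and 6701 had several, with a median of 3. The leading isoform held at least 50% of the gene's TPM in 73.7%, 74.5% and 77.1% of the latter (75.1 ± 1.79%, SD, n = 3). It held at least 90% in 14.3%, 16.0% and 16.8% (15.7 ± 1.31%, SD, n = 3), and 674 genes passed that mark in each library. A second isoform held at least 25% in each library in 1677 genes. The more isoforms a gene had, the smaller its lead: the median share was 82.4% for genes of 2 isoforms, 57.9% for 4 to 5 and 32.2% for 11 or more. A gene with more isoforms has more ways to divide its reads, so part of this order is arithmetic.

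The leading isoform was more often a new splice form than an annotated transcript. Code j led in 53.8%, 56.2% and 53.2% of multi-isoform genes and code = in 39.9%, 37.7% and 40.7%. The difference was larger than the spread between libraries, which was 1.56 percentage points (SD, n = 3) for either code. Code o led in 4.15% and code c in 2.03%. The same isoform led in all 3 libraries in 5180 genes (77.3%). In the other 1521 genes the lead was often narrow: its median share was 45.6%, 46.8% and 48.5% there, against 70.7%, 71.6% and 73.2% in genes with 1 shared lead. Library 2 was the odd one in 657 of them, library 3 in 400 and library 1 in 357, and in 107 each library had its own lead.

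Some abundant brain genes had 1 dominant form. Apoe was led by an assembled form of code j with 98.2%, 98.4% and 98.3% of its TPM, and Snurf, of the imprinted Snrpn locus, with 95.03%, 93.34% and 94.56%. The 3 libraries lay within 3 percentage points of each other in both genes. Pkm, pyruvate kinase, has a pair of mutually exclusive exons of 167 bases, of which the upstream one is known to be used in brain and muscle. Isoforms with the upstream exon (chromosome 8, 64498948 to 64499114) held 91.4%, 92.3% and 93.8% of its TPM (92.5 ± 1.19%, SD, n = 3), and those with the downstream one 8.56%, 7.70% and 6.21%. App, the amyloid precursor protein, was led by a form without the exon of 168 bases on chromosome 11 (24512165 to 24512332), which encodes the Kunitz protease inhibitor domain. That exon was in 14.9%, 11.2% and 14.7% of its TPM (13.6 ± 2.13%, SD, n = 3).

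Other genes divided their RNA between forms. In Mbp, isoforms with a 78-base inner exon held 41.5%, 50.7% and 36.7% of TPM, and those with a 123-base inner exon 53.4%, 47.4% and 59.4%. The leading Mbp isoform was thus a different one in library 2, where the form with the 78-base exon led with 50.6% against 40.2%. In Mapt, which encodes the microtubule protein tau, a pair of 87-base exons had inclusion of 60.5%, 59.9% and 65.4%, and of 34.8%, 38.2% and 38.1%. In Gria2, an AMPA receptor subunit, a pair of alternative 115-base exons held 47.9%, 51.5% and 49.3%, and 38.3%, 33.2% and 42.1%. Both Gria2 exons were thus well represented in each library. In Grin1, the obligatory NMDA receptor subunit, a 111-base exon was included at 38.2%, 30.8% and 25.4%. These shares rest on estimated isoform levels, and no read over a junction was counted here.

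**Figure D4:**
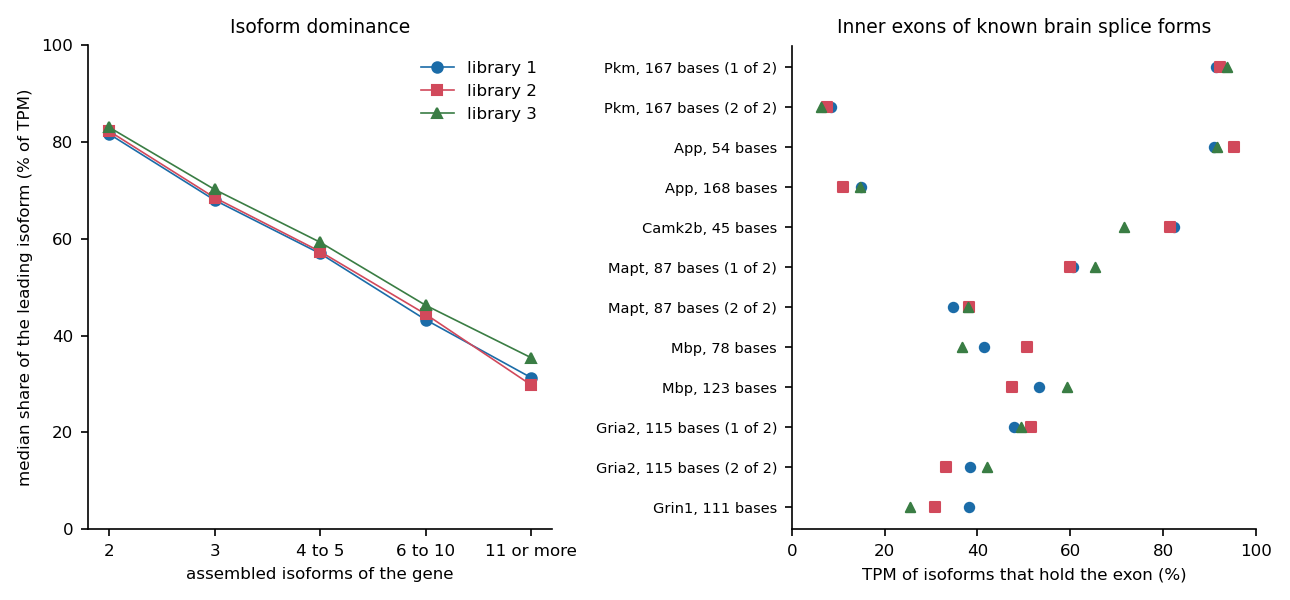
Left, median share of a gene's TPM held by its leading isoform, by number of assembled isoforms, for the 6701 multi-isoform genes in each wild-type library. Right, percent of a gene's TPM in isoforms that hold a given inner exon, with 1 point for each library: the Pkm pair lies near 92.5% and 7.49%, and the exons of Mapt, Mbp, Gria2 and Grin1 lie in between.

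Of the 40 genes listed for known brain splice forms, 39 had several isoforms, 23 (59.0%) kept 1 lead in all libraries and 17 had a lead under 50% in each. Their share with 1 lead was below the 77.3% of all multi-isoform genes. Over all multi-isoform genes, though, that share fell with isoform number. It was 87.5% for genes of 2 isoforms, 62.3% for 6 to 10 and 53% for 11 or more. The listed genes were not compared with genes of like isoform number, and Ank3, the gene of an ankyrin scaffold, had 26 isoforms. Ntrk2, the receptor of the growth factor BDNF, was led by a form of 13 exons with 63.9%, 60.8% and 56.8%, over an annotated form of 19 exons with 18.98%, 22.95% and 25.91%. The gene is known for a truncated receptor beside the full kinase. Scd2, a fatty acid desaturase of myelinating brain, differed most in library 3. The annotated isoform of 5046 bases held 44.1%, 43.7% and 0.375%, and a form of code j of 5010 bases 55.9%, 56.3% and 99.6%. These forms differ only by a gap between bases 264071619 and 264071656 of chromosome 1, within the last exon of the annotated form. Whether this short gap is a spliced intron was not tested. Rbfox3, the neuronal nuclear antigen NeuN, had another lead in library 2, where a 12-exon form held 54.7% against 14.6% and 17.8% in libraries 1 and 3. Some leads were short pieces: in Snap25 a 267-base transcript of code o held 48.0%, 33.1% and 49.7% of TPM from 1018, 548 and 1619 counts, against 13317, 11037 and 19867 counts for the annotated form. In Gnas, the stimulatory G protein gene, a piece of code c on a locus of its own held 92.2%, 90.7% and 91.4%. Shares of Gnas and Snap25 thus compare assembled pieces, not whole mRNAs.

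Across expressed genes the libraries differed moderately. The median CV of nuclear TPM was 18.7%, and on the strict scale 12.8%, with quartiles of 7.86% and 19.7%. On the first scale library 1 was lowest in 7227 of 9842 genes, and on the strict scale in 2715 of 9531, so that order depended on code o. Across genes, the log2 levels of libraries 1 and 3 had a Pearson correlation of 0.974 on the first scale, those of 1 and 2 of 0.962 and those of 2 and 3 of 0.949; genes are not independent replicates. Length moved with the library: the median ratio of library 2 to the mean of the others was 1.14 for effective lengths of 350 to 500 bases and 0.961 above 4000, beside the shorter fragments of library 2. The part of fragment length in that difference was not tested.

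The genes of highest CV were mostly high in library 3. Among 9724 genes of at least 10 nuclear TPM in the mean, 14 of the 15 most variable were highest in library 3 and 1 (Exoc7) in library 2. Over all expressed genes of the first scale, 4688 of 9842 were highest in library 3. The minimum was set on the mean, so a gene could enter through 1 high library alone, and the count partly restates that choice. Of the 15, 12 were also among the 15 most variable on the strict scale. Of these 15, 5 were members of the cerebellar list: Cbln3, Gabra6, Fat2, Car8 and Cbln1. Cbln1, the precerebellin that links granule and Purkinje cells, stood at 10.9, 14.2 and 138 nuclear TPM. Slc1a6, the Purkinje cell glutamate transporter, stood at 3.66, 3.30 and 53.3, and Neurod1, a transcription factor of granule cells, at 6.47, 6.68 and 71.8. Ppp1r17, a phosphatase inhibitor of Purkinje cells, stood at 1.57, 2.26 and 51.3, and Dao, the D-amino acid oxidase of hindbrain glia, at 2.09, 1.79 and 40.6. In all of these, library 3 was many times as high as the other libraries. Spp1, osteopontin, stood at 14.1, 5.08 and 89.2.

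A few of these genes owed their place to 1 isoform. Tsc22d4, a leucine zipper protein, had the highest CV, at 0.78, 0.75 and 32.9 nuclear TPM. Its value in library 3 came from a form of code j of 1118 bases that was at 0 TPM in libraries 1 and 2. Exoc7, a subunit of the exocyst that tethers vesicles, stood at 4.64, 34.7 and 4.61, through an annotated isoform of 1962 bases with 0, 3.18 and 0 TPM. The long form of Exoc7 stood at 0.71, 0.51 and 0.77 TPM, so the libraries were alike in it.

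**Figure D5:**
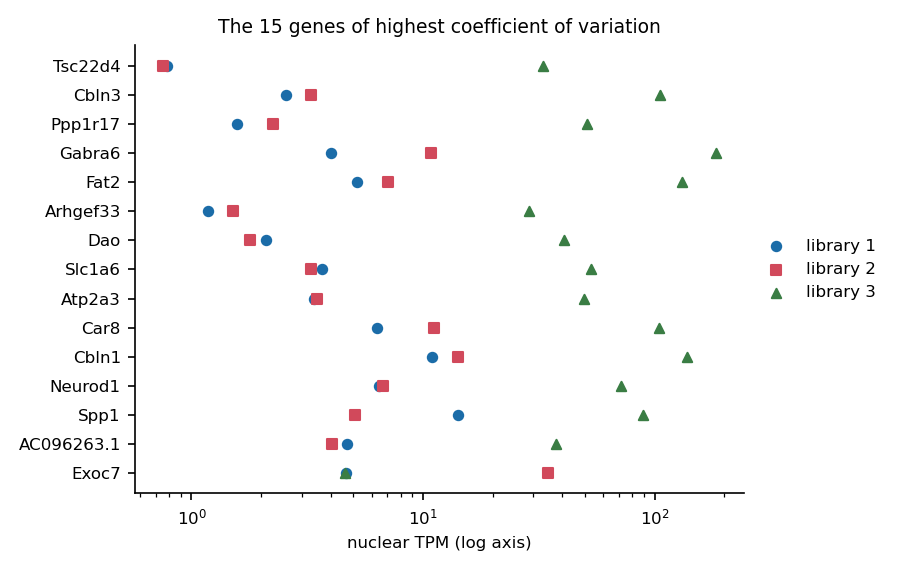
Nuclear TPM (log axis) of the 15 genes of highest coefficient of variation among genes of at least 10 nuclear TPM in the mean, with 1 point for each wild-type library. Library 3 lies far to the right for 14 of them, and library 2 for Exoc7 alone.

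The least variable genes depended on the scale. On the first scale they were Rtn2, a reticulon, at 45.5, 45.5 and 45.5 nuclear TPM, Stk40, Shroom2, Kmt2a, Galnt9, Adck4, Ppp2r2c, B3gat3, Unkl and Etv5, with CVs from 0.0811% to 1.05%. The same 10 genes had CVs from 14.17% to 18.98% on the strict scale, and none of them was among its 10 least variable. On the strict scale these were Pbxip1, Ttll1, Cdk4, Dnajc5, LOC498154, Ttc5, Msi2, Pms2, Rce1 and Gabpb1, all with CVs under 0.5%. Dnajc5, the vesicle chaperone cysteine string protein, had 328, 329 and 327 strict nuclear TPM from 8289, 7821 and 9913 counts. Cdk4, a kinase of the cell cycle, had 88.2, 88.5 and 88.0. With 3 libraries, such low values are the tail of a distribution over many genes, and they do not rank genes for stability.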

How the data were processed

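RNA was measured in 3 wild-type whole-brain libraries. Per the submitters' processing notes, cutadapt, HISAT2, StringTie and RSEM were used with rat build rn6; the sources used here do not give their versions, their order or whether counting used the strand. For each isoform and locus the authors deposited an expected count (an estimated number of fragments, not always whole), a TPM, and for isoforms the percent of the locus (IsoPct), on 145807 assembled transcripts with class codes against Ensembl. Those values were summed here by gene name over codes =, c, j and o, and isoform shares were recomputed within a gene name. Nuclear TPM rescales genes of at least 350 bases of mean effective length to 1000000; a gene counts as expressed at a deposited TPM of 1 in each library. Inner-exon inclusion is the share of TPM of the isoforms spanning an exon that hold it. With 1 group no test was run, no p-value is given, and errors are SD over 3 libraries. The labels number separate rats.

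The members, gene lists and settings were chosen with earlier results of these data known. Named were the 10 loci and 25 genes of highest level, the 5 highest members of each of 34 lists, abundant genes with shared, changing or new leading isoforms, the genes of known brain splice forms, the 15 most and 10 least variable genes, and the highest loci of each code. The least variable genes of the strict scale and list members beyond the 5 highest were chosen after their values were seen. Calculations used Python 3.11.15, pandas 2.3.3, numpy 2.4.6 and matplotlib 3.10.9, and were tested on simulated data. Alternatives included counts in place of TPM, other minimum levels, TMM (edgeR 4.0.16 in R 4.3.3) and leaving out each library. A comparison of RefSeq proteins among paralogs was planned and not run, and the other genotypes were not analysed here. Some genes that the rule names are not reported here. The SD covers the differences between these libraries; sampling error of single isoforms was not estimated.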

Additional observations from a re-analysis of the deposited data

How the results depend on the processing

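Of 73 values under alternative settings, 46 stayed close to the reported value and 27 moved. A share or a spread counted as close within 1 SD, taken over libraries or pairs of libraries. A number of genes counted as close within a factor of 1.5. Leaving out 1 of 3 libraries shifts a mean by less than that SD, so mean shares had to stay close. The 46 thus do not measure how robust the results are. With counts in place of TPM, code = held 26.1%, mitochondrial RNA 26.2%, 964.3 genes held 50%, and an annotated isoform led in 33.9% of genes, against 63.4%, 4.63%, 336.7 and 39.4%. Without effective lengths under 350 bases, code = held 20.7% and mitochondrial RNA 16.1%; with mitochondrial transcripts, spike-ins and the 3 loci of most counts also left out, code = held 47.8%. A minimum of 5 TPM left 3793 of the 10182 expressed genes, and code = alone 5628. With no minimum length 4.33 genes held 50%, and without code o, a setting chosen after seeing the data, 868.3. By TMM-scaled CPM, 11 of the 25 leading genes stayed. At a gene level of 10 TPM, 23.1% of genes had a lead of at least 90%, 41.5% an annotated lead and 84.8% a shared lead, against 15.7%, 39.4% and 77.3%. Leaving out isoforms under 5% gave 11.6% for the first, and grouping by locus 37.8% for the second. The median CV of 18.7% was 26.3% on deposited TPM, 13.04% by TMM, 12.98% by size factors, and 12.8% without code o. The marker lists of cell classes held 3.91% of nuclear TPM, 0.551% of deposited TPM and 5.16% without code o. Leaving out 1 library each gave 82.6% to 87.1% for the shared lead, 12.1% to 18.5% for the median CV (lowest without library 1), 60.2% to 69.4% for code =, 3.57% to 5.26% for mitochondrial TPM, 10235 to 10797 expressed genes and 279.5 to 445.5 genes for 50%. No paired analysis was possible because the results come from no test and from 1 group. With 1 library left out, a shared lead and an expressed gene need fewer libraries, so these values could not fall. The cause of the other shifts was not tested. Levels of genes with few counts and shares of their isoforms are the least precise.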

Other observations

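Imprinted genes, of which only the copy from 1 parent is active, had a median spread below that of all expressed genes. Of 20 listed, 12 were expressed, with sums of 5149, 4841 and 5156 strict nuclear TPM and a median CV of 9.27%, against 12.8% over all expressed genes. Ndn, necdin, an imprinted growth suppressor of neurons, had 272, 268 and 254, and Nnat, neuronatin, 518, 523 and 503. Peg3, a zinc finger protein, ranged more widely, with 271, 196 and 373. The imprinted gene Dlk1, which was below 1 deposited TPM in at least 1 library, had 12.6, 2.02 and 14.9, lowest in library 2, as the sum of the hypothalamic genes was.

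Genes in common use as references in quantitative PCR differed widely in spread. Of 15 listed, 14 were expressed, with a median CV of 10.8% on the strict scale and 20.3% on the first. Ywhaz, a 14-3-3 protein, had 2001, 1999 and 1752 strict nuclear TPM, a CV of 7.47%, and Tbp, the TATA-binding protein, 21.71, 25.48 and 22.99, a CV of 8.19%. B2m, beta-2-microglobulin, had 303, 568 and 401, a CV of 31.7%.

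Some long transcripts overlapped microRNA genes on the same strand. In all, 195 transcripts lay over 119 microRNA names; 60% of them had code o, and 78 had code =, the annotated microRNA transcripts. Of the names, 8 reached 1 TPM in each library. For the 4 names given next every transcript had code o and at least 2746 bases, so the values are levels of overlapping long transcripts, not of mature microRNAs. Mir325, on the X chromosome, stood at 3.50, 4.20 and 2.82 TPM, and Mir384, in the same region, at 0.85, 1.16 and 0.64, both highest in library 2. Mir431 stood at 3.04, 3.01 and 2.43 and Mir377 at 1.17, 1.12 and 0.90, both on chromosome 6. A single mature arm of each name is printed from RefSeq (GRCr8), 5′ to 3′, with the seed (bases 2 to 8) in capitals; no 2 of the 4 share a seed. The other arms of Mir325, Mir384 and Mir377 are not printed.
rno-miR-325-3p: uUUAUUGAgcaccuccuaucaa
rno-miR-384-5p: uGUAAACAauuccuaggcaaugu
rno-miR-431: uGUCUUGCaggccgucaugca
rno-miR-377-3p: uGAAUCACacaaaggcaacuuuu

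Of the 15 long non-coding RNAs listed, 2 were named in the annotation at a usable length, and both were expressed on the nuclear scale. Snhg11 had 207, 237 and 154 strict nuclear TPM, and Tug1 51.7, 52.6 and 54.9. The rest of the list could not be measured on this scale, so it gives no level for them. Spike-in RNAs held 2.49%, 3.26% and 4.87% of TPM, and 94 of their 99 loci were above 0 in each library.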
